A study of Homo sapiens with 4 samples.

Results

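The nuclear genes of the mitochondrial respiratory chain were examined in parental and cisplatin-resistant head and neck squamous cell carcinoma (HNSCC) cells. The genes were chosen by a rule on their names: NDUFA, NDUFB, NDUFC, NDUFS and NDUFV genes for complex I, SDHA to SDHD for complex II, UQCR genes for complex III, COX4 to COX8 genes for complex IV and ATP5 genes for complex V, leaving out names with a hyphen. The rule was set with earlier results of these data known. Of 43305 gene names on the arrays, 86 met the rule, 38 in complex I, 4 in complex II, 9 in complex III, 17 in complex IV and 18 in complex V. The names gather 74 widely expressed subunits and 12 other genes. Those 12 are 7 isoforms that are restricted to certain tissues or conditions (6 of complex IV and NDUFA4L2), 3 assembly or regulatory factors (COX7A2L, ATP5S, ATP5SL), the pseudogene UQCRBP1 and ATP5L2, a copy of ATP5L.

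The parental cells were HN4 and HN30, both established human lines of this carcinoma. Rising steps of cisplatin, a platinum drug that crosslinks DNA, had been used to select a resistant line from each, HN4/DDP and HN30/DDP (labelled HN4_CR and HN30_CR), which were maintained at 20 μM of the drug, with 48 hours given in the labels. All cells were grown in DMEM with fetal bovine serum. RNA of each of the 4 lines was hybridised once, with Cy3, to a one-colour Agilent expression array, so there is 1 array per condition, with no replicate. The selection history and the drug in the medium differ together between resistant and parental cells and cannot be told apart.

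The respiratory chain sits in the inner mitochondrial membrane. Complex I takes electrons from NADH and complex II from succinate, complex III passes them from ubiquinol to cytochrome c, and complex IV hands them to oxygen. Complexes I, III and IV pump protons, and complex V, the ATP synthase, lets the protons flow back through a rotor to make ATP. Most subunits are encoded in the nucleus and imported, while a small core of complexes I, III, IV and V is encoded by mitochondrial DNA. Many nuclear subunit genes carry promoter sites for NRF1 and for the ETS factor GABPA, and cyclic AMP response elements (CRE), the sites of CREB and ATF factors, occur in some of them.

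The promoters of 5 subunits with a full CRE, TGACGTCA, are shown because they include those of the 2 subunits with the lowest differences in HN30, NDUFB2 and ATP5G1. Each runs from 250 bases before to 50 bases after the RefSeq start of the gene on GRCh38.p14, 5′ to 3′ on the strand of the gene. Capitals mark the full CRE and any further match to the motifs described later.
NDUFB2 (chr7:140696458-140696757, + strand): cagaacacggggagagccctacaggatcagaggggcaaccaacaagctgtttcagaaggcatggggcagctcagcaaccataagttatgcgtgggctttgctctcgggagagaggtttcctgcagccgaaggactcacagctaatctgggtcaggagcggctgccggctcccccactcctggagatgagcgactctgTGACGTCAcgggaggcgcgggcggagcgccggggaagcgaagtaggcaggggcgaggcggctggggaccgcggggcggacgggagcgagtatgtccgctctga
ATP5G1 (chr17:48892537-48892836, + strand): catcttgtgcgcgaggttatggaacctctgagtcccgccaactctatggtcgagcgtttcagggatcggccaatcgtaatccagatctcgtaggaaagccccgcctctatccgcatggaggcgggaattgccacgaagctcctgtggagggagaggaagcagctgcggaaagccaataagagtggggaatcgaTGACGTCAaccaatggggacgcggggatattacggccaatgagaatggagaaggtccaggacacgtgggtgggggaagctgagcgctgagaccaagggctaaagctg
SDHB (chr1:17053983-17054282, - strand): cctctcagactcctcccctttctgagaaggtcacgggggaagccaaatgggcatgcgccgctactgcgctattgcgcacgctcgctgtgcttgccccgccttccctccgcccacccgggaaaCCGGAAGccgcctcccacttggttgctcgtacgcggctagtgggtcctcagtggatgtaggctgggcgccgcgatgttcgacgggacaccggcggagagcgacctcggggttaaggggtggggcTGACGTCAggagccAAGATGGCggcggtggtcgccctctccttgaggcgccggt
NDUFA10 (chr2:240025293-240025592, - strand): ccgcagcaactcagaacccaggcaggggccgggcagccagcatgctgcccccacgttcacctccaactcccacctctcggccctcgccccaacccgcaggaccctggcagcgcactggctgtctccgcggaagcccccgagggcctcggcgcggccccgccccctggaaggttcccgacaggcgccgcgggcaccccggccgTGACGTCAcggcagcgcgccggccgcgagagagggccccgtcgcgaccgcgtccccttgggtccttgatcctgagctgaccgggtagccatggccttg
ATP5I (chr4:674227-674526, - strand): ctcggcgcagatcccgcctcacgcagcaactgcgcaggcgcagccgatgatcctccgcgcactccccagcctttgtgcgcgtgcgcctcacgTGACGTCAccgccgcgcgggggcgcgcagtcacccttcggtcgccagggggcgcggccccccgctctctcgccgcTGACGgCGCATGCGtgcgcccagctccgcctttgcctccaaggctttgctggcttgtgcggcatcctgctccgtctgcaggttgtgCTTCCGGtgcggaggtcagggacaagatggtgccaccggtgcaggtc
The CRE began 53 bases before the start in NDUFB2, 57 in ATP5G1, 48 in NDUFA10, 4 in SDHB and 158 in ATP5I. ATP5G1 and ATP5I are now named ATP5MC1 and ATP5ME.

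Every signal below is a log2 processed intensity minus the 75th percentile of its array, and every difference is resistant minus parental on that log2 scale. A value of 0 is thus the brightness at the 75th percentile of the array. Between 55.3% (HN30) and 63.6% (HN30/DDP) of the spots of an array were well above background. No spot of a member was saturated, 80 of the 86 members were well above background on all 4 arrays, and UQCRBP1 and COX7A1 were so on none. Of 9 epithelial markers, 9 were well above background on 3 of the arrays and 8 in HN30/DDP, where KRT6A was not, and of 5 fibroblast markers COL1A1 and PDGFRB were so on all 4 and COL1A2, COL3A1 and LUM on none. Over the 9 epithelial markers, 3 differences were below 0 in HN4 and 5 in HN30. Those of KRT5, KRT14 and KRT17 were -4.05, 2.33 and 3.29 in HN4 and -1.93, 0.22 and 0.19 in HN30. Those of CDH1, DSG3 and EPCAM were 0.58, 1.84 and -0.14 in HN4 and 1.34, 0.55 and -0.72 in HN30. Those of SFN and TP63 were 0.15 and -0.82 in HN4 and -0.96 and -0.059 in HN30. KRT6A differed by 3.32 in HN4 and was lower in HN30/DDP than in HN30. COL1A1 differed by 1.73 in HN4 and 2.43 in HN30, and PDGFRB by -0.012 and 0.63. Of the immune markers PTPRC was well above background on all 4 arrays and CD3E in HN30/DDP alone, and of the endothelial ones CDH5 on all 4 and PECAM1 in HN4 and HN30/DDP. The part of these markers in the subunit values was not tested. In whole-culture RNA, fewer cells of a kind and less RNA per cell cannot be told apart. Within a line, resistant and parental cells could not be compared by a test, since each was hybridised once. The scanner's own error of a difference had a median of 0.20, and this covers spot error only.

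In HN30/DDP the widely expressed subunits were lower than in HN30. With arrays scaled to their 75th percentiles, 74 of 74 differences were below 0, with a median of -0.82, which is 1.77-fold lower, and a range of -2.73 to -0.10. The count below 0 was 60 of 74 with the trend of difference with brightness taken off, 59 in the deposited log2 values, 57 after quantile normalization and 73 with the mean of all probes of a gene. In HN4/DDP the same 74 subunits had a median of -0.061 against HN4, with 43 below 0 and 31 above, and a range of -0.92 to 0.64. Over all 86 members the median was -0.74 in HN30, with 81 below 0, and -0.061 in HN4, with 49 below 0. The HN4 median ran from -0.082 to 0.055 over 11 other ways of processing the data and was above 0 in some of them, and the HN30 median stayed below 0 in all 11, from -1.16 to -0.28. The 10 genes of a proliferation list, from MKI67 to TYMS, were also all below 0 in both lines, with medians of -0.46 in HN4 and -2.04 in HN30 and a range of -2.54 to -1.33 in HN30, and their part in the subunit values was not tested. Over all 43305 gene names the median was -0.21 in HN4, with 62.3% below 0, and -0.071 in HN30, with 53.1% below 0.

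**Figure D1:**
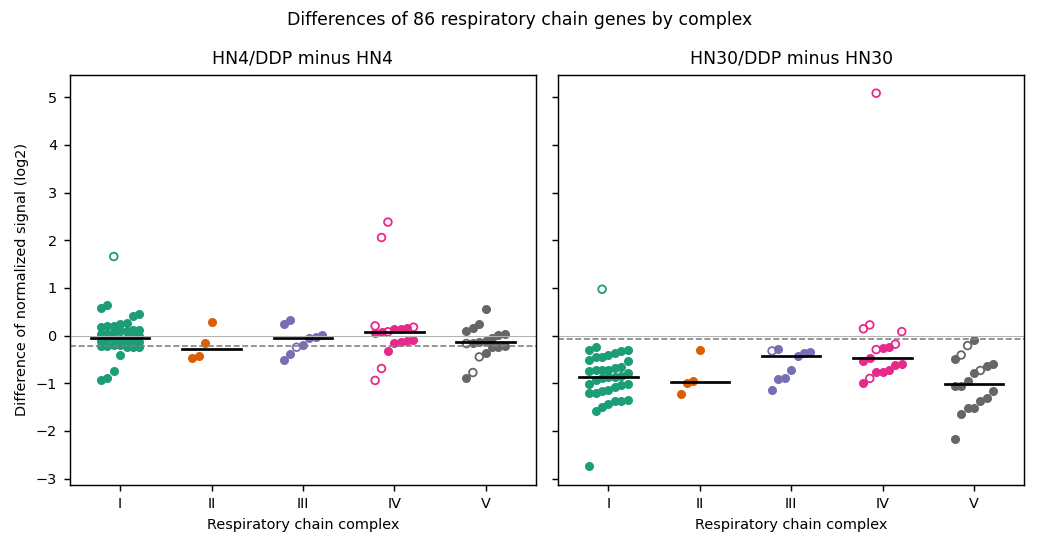
Differences (log2, vertical axis) of the 86 members by complex (horizontal axis), in HN4 on the left and HN30 on the right, with 1 array per condition. Filled points are widely expressed subunits, open points the 12 other genes, solid bars the medians of a complex and the dashed line the median of all gene names. In HN30 every filled point lies below 0 under this scaling.

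A member was counted as higher or lower when its difference reached 1 in size, a 2.0-fold difference, and its brighter array read it well above background. In HN30, 26 members were lower by this count, against 8.67% of all gene names, and 14.2% of the 23245 genes well above background on both arrays. COX8C alone was higher there, against 12.9% of all gene names. The 26 were 15 of complex I, 9 of complex V, SDHC of complex II and UQCRQ of complex III, and no member of complex IV was among them. The split of 1 higher and 26 lower depended on the scaling. The 26 are 30.2% of the members. After quantile normalization the split was 1 and 6, so 6.98% of the members were lower against 8.59% of all gene names. In the deposited log2 values it was 1 and 8, or 9.3% lower against 8.78%. Under these scalings the share of members past this limit was thus near that of all genes. With the trend of difference with brightness taken off it was 2 and 9, or 10.5% lower against 6.77%, and with arrays scaled to their medians 1 and 55, or 64% lower against 15.6%.

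In HN4, COX7B2 alone was higher by 1 or more, against 5.77% of all gene names, and no member was lower, against 5.36% of all gene names and 6.62% of the 23470 genes well above background on both arrays. At a difference of 0.5, 4 members were higher and 8 lower in HN4, where 11.7% and 14% of all gene names were, and 2 were higher and 58 lower in HN30, where 21% and 17.3% were. At a difference of 2, NDUFB2 and ATP5G1 were lower in HN30, where 1.8% of all gene names were, and COX8C was higher, where 5.48% were. In HN4, COX7B2 was again the single member counted as higher by 2 or more, against 2.24% of all gene names, and none was lower, against 1.36%. COX7B2 was not well above background in HN4. It was at least 2.21-fold higher in HN4/DDP, which does not reach the 4.0-fold of this limit.

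By complex, the median differences of all members in HN30 were -0.86 in complex I, -0.98 in complex II, -0.43 in complex III, -0.48 in complex IV and -1.01 in complex V. With the widely expressed subunits alone they were -0.87, -0.98, -0.57, -0.61 and -1.06. Complexes III and IV thus had medians nearer to 0 than complexes I, II and V, a description of 1 pair of arrays with no test, though with the mean of all probes of a gene complex III had -0.72 and complex II -0.71. In HN4 the complex medians were -0.043, -0.28, -0.060, 0.067 and -0.14 from I to V. Those of complexes II and V stayed below 0 under all 11 alternatives, and those of complexes I, III and IV changed sign under some.

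The place of each array in the order of the 4 was also counted. HN30/DDP was the lowest of the 4 arrays for 66 of the 74 widely expressed subunits, 89.2%, and for 34.3% of the 22149 genes well above background on all 4. Parental HN30 was the highest for 59 of the 74, 79.7%, against 33.5% of those genes. Between parental lines, 68 of 74 subunits had more signal in HN30 than in HN4, with a median difference of 0.24. Of all 43305 gene names, 26344 did, with a median of 0.097. Between resistant lines the order was the other way, with 5 of 74 higher in HN30/DDP than in HN4/DDP and a median difference of -0.55.

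**Figure D2:**
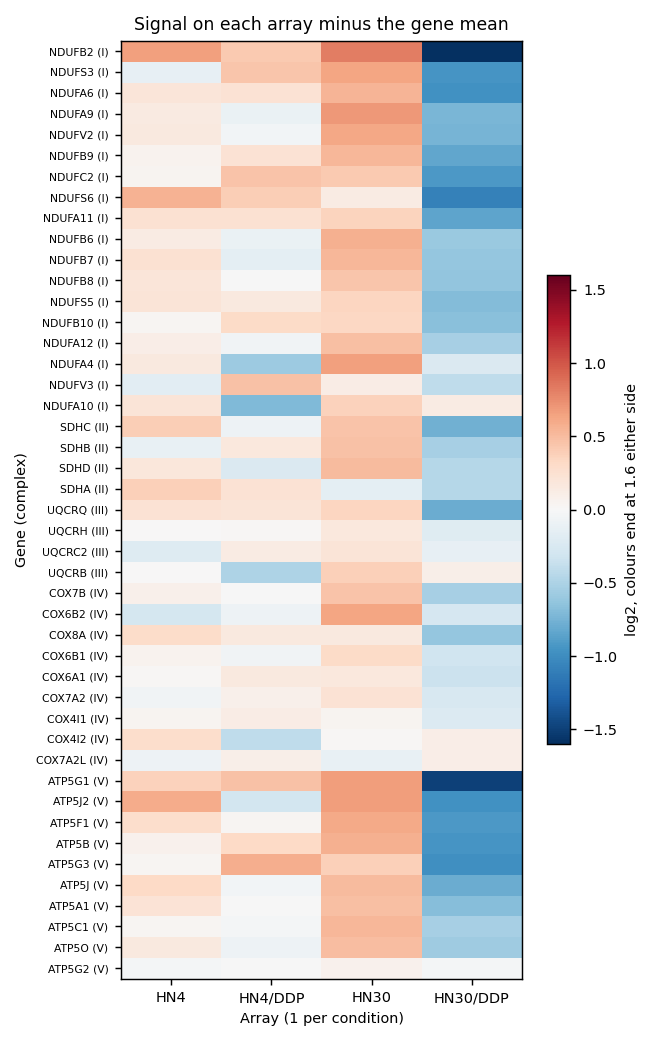
Signal of each named member that was well above background on all 4 arrays, minus the mean of that member (colour, log2), with arrays in columns and members in rows by complex. Most of the 45 rows are red in HN30 and blue in HN30/DDP. The rows include the 26 members lower by 1 or more in HN30 and the extremes of each complex. The colours thus follow in part from how the rows were picked.

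Complex I has a core that carries the flavin and iron-sulfur clusters and many accessory subunits around it. In HN30 the 29 accessory subunits had a median difference of -0.85, and all of them were below 0. In the order HN4, HN4/DDP, HN30 and HN30/DDP, the signals of NDUFB2, an accessory subunit of the membrane arm, were 7.09, 6.85, 7.25 and 4.52. The first 3 lay close together and HN30/DDP was far below them, with differences of -0.24 in HN4 and -2.73 in HN30, the latter the lowest of all members. NDUFS3, a core subunit near the ubiquinone site, had signals of 4.65, 5.23, 5.41 and 3.84. Here the lines went opposite ways, 0.57 in HN4 and -1.57 in HN30, and the resistant and parental signals overlapped. NDUFV2, a core iron-sulfur protein of the NADH-oxidising end, had 5.90, 5.70, 6.36 and 4.996, with HN30/DDP the lowest and differences of -0.20 in HN4 and -1.36 in HN30.

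Further core subunits had smaller differences in HN30, -0.93 for NDUFS1, -0.51 for NDUFV1, -0.32 for NDUFS7 and -0.30 for NDUFS8. In HN4 these lay between -0.076 and 0.12. NDUFS1 holds several of the iron-sulfur clusters, NDUFV1 binds NADH and the flavin, and NDUFS7 and NDUFS8 carry the clusters nearest to ubiquinone. The core subunits named here thus spanned -1.57 to -0.30 in HN30.

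Among accessory subunits of complex I, NDUFA6, a small protein with a LYR motif, had signals of 5.54, 5.59, 5.89 and 4.39 in the same array order. NDUFA9, in the peripheral arm near the ubiquinone site, had 2.88, 2.63, 3.42 and 2.0001. NDUFB9, another LYR protein, had 7.64, 7.81, 8.11 and 6.75. All 3 were lowest in HN30/DDP, with HN30 differences of -1.51, -1.42 and -1.36 and HN4 differences of 0.042, -0.25 and 0.18. NDUFC2, of the membrane arm, had 5.73, 6.14, 6.11 and 4.76. NDUFS6, a zinc-binding subunit needed late in assembly, had 6.34, 6.18, 5.91 and 4.70. NDUFA11, at the boundary of the membrane arm, had 5.88, 5.87, 5.98 and 4.78. For these, too, HN30/DDP was the lowest array, with differences of -1.35, -1.21 and -1.20 in HN30, while in HN4 the 2 NDUFC2 probes disagreed, 0.41 and -0.25.

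Further membrane-arm subunits passed the difference of 1 by less. NDUFB6 had signals of 5.31, 5.08, 5.74 and 4.59. NDUFB7 had 4.36, 3.96, 4.64 and 3.49. NDUFB8 had 6.47, 6.27, 6.71 and 5.64. In each, the resistant array was below its parental array in both lines, by less in HN4 (-0.23, -0.40 and -0.20) than in HN30 (-1.15, -1.15 and -1.07). NDUFB10 had 5.81, 6.08, 6.11 and 5.10, with opposite signs in the lines, 0.27 in HN4 and -1.01 in HN30. NDUFS5, which faces the intermembrane space, had 7.89, 7.84, 8.03 and 6.997 and a HN30 difference of -1.03. NDUFA12, at the end of the peripheral arm, had 4.76, 4.60, 5.14 and 4.14 and one of -1.01. NDUFA12, NDUFB10 and NDUFS5 thus lay just inside the limit of 1, and COX7B and SDHB, at -0.99 and -0.999, just outside it.

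Some members of complex I stood out in HN4. NDUFA10, an accessory subunit on the matrix side of the membrane arm, had signals of 4.83, 3.91, 4.99 and 4.75. HN4/DDP was the lowest array for it, and its differences, -0.92 in HN4 and -0.24 in HN30, made it the complex I member with the lowest value in HN4 and the highest in HN30 among those well above background on all arrays. A second NDUFA10 probe gave -0.64 in HN4 and -0.41 in HN30, and another, to a further transcript, -0.56 and 0.69. NDUFV3, an accessory subunit at the NADH-oxidising end, had 4.81, 5.45, 5.10 and 4.57, with the highest signal in HN4/DDP and differences of 0.64 in HN4 and -0.53 in HN30. A further NDUFV3 probe gave 0.62 and 0.048. NDUFB1, a small membrane-arm subunit, had differences of -0.88 in HN4 and -0.72 in HN30.

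NDUFA4 was first described in complex I, later assigned to complex IV, and is now named COXFA4 in RefSeq. Its signals were 8.23, 7.48, 8.72 and 7.84. Both resistant arrays lay below both parental arrays, with differences of -0.74 in HN4 and -0.88 in HN30. Its paralogue NDUFA4L2, which is known to be induced by hypoxia, had -6.96, -5.31, -5.60 and -4.63. It was well above background in HN30/DDP alone, barely, so no fold is given.

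Complex II is made wholly of nuclear subunits and also works in the citric acid cycle. SDHA, which binds the flavin and oxidises succinate, had signals of 6.76, 6.61, 6.22 and 5.93 in the order HN4, HN4/DDP, HN30 and HN30/DDP. The HN30 lines were both below the HN4 lines for SDHA, and its differences were -0.15 in HN4 and -0.29 in HN30. The other 3 SDHA probes gave the opposite sign in HN4, 0.17, 0.091 and 0.23, and the same sign in HN30, -0.40, -0.37 and -0.46. SDHB, the iron-sulfur subunit, had 4.80, 5.08, 5.38 and 4.38. HN30 was highest and HN30/DDP lowest for SDHB, with differences of 0.28 in HN4 and -0.999 in HN30. Of the membrane anchors, SDHC had 4.94, 4.46, 5.001 and 3.78 and SDHD had 3.58, 3.16, 3.89 and 2.93. Both anchors were lower on the resistant array in both lines, with differences of -0.47 and -0.42 in HN4 and -1.22 and -0.96 in HN30. The other 3 SDHC probes gave -0.32, -1.54 and 1.44 in HN30, the last to another transcript, so the probes of this gene disagree there.

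Complex III has 2 large core proteins, the Rieske iron-sulfur protein and small accessory subunits. UQCRQ, a small subunit near the ubiquinone sites, had signals of 8.24, 8.22, 8.35 and 7.22. It was the only member of the complex lower by 1 or more in HN30, -1.13, and differed by -0.022 in HN4. UQCRC2, a core protein, had 4.80, 5.13, 5.20 and 4.87, highest in HN30 and lowest in HN4, with differences of 0.33 in HN4 and -0.34 in HN30. UQCRH, the hinge protein that helps cytochrome c dock, had 8.23, 8.25, 8.39 and 8.03 and differences of 0.012 in HN4 and -0.36 in HN30, and RNA of a near-identical gene copy, UQCRHL, could add to its signal. UQCRB, an accessory subunit, had 5.92, 5.41, 6.30 and 6.01. HN4/DDP was the lowest array for UQCRB, with differences of -0.51 in HN4 and -0.29 in HN30, but its other probe, to another transcript, gave -2.28 and -2.43. UQCRFS1, the Rieske protein, differed by -0.19 in HN4 and -0.89 in HN30, and UQCRC1 by -0.060 in HN4 and -0.43 in HN30. UQCR10 and UQCR11, the smallest accessory subunits, differed by -0.92 and -0.72 in HN30 and by -0.38 and 0.25 in HN4. The pseudogene UQCRBP1 was well above background on no array.

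Complex IV has a mitochondrially encoded core, and its nuclear subunits regulate and stabilise it. Several come as a widely expressed form and a tissue-restricted form. COX4I1, the widely expressed subunit IV, had signals of 6.39, 6.45, 6.38 and 6.12. COX6A1 had 8.41, 8.54, 8.56 and 8.04. COX6B1 had 6.55, 6.44, 6.80 and 6.17. Their differences were slight in HN4 (0.067, 0.13 and -0.12) and below 0 in HN30 (-0.27, -0.52 and -0.62), with HN30/DDP the lowest array of each. COX7A2 had 7.58, 7.71, 7.86 and 7.38. COX7B had 6.03, 5.94, 6.41 and 5.42. COX8A had 8.04, 7.91, 7.90 and 7.13. HN30/DDP was again the lowest array, and COX7B was the lowest of the complex in HN30 at -0.99. The remaining COX5A, COX5B, COX6C and COX7C differed in HN30 by -0.72, -0.76, -0.60 and -0.24, and in HN4 by 0.054, -0.16, -0.32 and 0.17.

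The restricted forms were mostly dim. COX4I2, the form of lung and hypoxic cells, had signals of -3.25, -3.94, -3.50 and -3.42 and differences of -0.69 in HN4 and 0.084 in HN30. COX6A2, of heart and skeletal muscle, had -4.41, -5.35, -4.50 and -4.36, and was not well above background in HN4/DDP, where it was at least 1.49-fold lower than in HN4. COX7A1, of muscle, had -6.08, -6.002, -4.77 and -4.95 and was well above background on no array. The testis form COX6B2 was well above background on all 4 arrays, with 3.50, 3.70, 4.41 and 3.52 and differences of 0.20 in HN4 and -0.90 in HN30, but another probe of the gene gave -0.39 and 2.67, which turns the direction in both lines. COX7B2, another testis form, had -6.001, -3.62, -5.72 and -6.01. It was well above background in HN4/DDP alone, at least 2.21-fold higher than in HN4. COX8C, also of testis, had -7.04, -4.98, -6.91 and -1.82. It was well above background in HN30/DDP alone, at least 6.99-fold higher than in HN30, and both its values in HN4 cells were not well above background.

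COX7A2L, which holds complexes III and IV together in supercomplexes, was slightly higher in both resistant lines. Its signals were 5.08, 5.25, 5.04 and 5.26. Both resistant arrays lay above both parental arrays, with differences of 0.18 in HN4 and 0.22 in HN30, about the size of the scanner's own error.

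Complex V has a catalytic F1 head, a central and a peripheral stalk and a membrane rotor, the c-ring. The HN30 medians were -1.06 for the 5 subunits of the head and central stalk, -1.18 for the 4 of the peripheral stalk, -1.37 for the 3 genes of the c-ring and -0.96 for the 3 other membrane subunits. In the head, ATP5A1 (now ATP5F1A), the alpha subunit, had signals of 6.65, 6.43, 6.91 and 5.76. ATP5B (now ATP5F1B), the catalytic beta subunit, had 5.52, 5.77, 6.02 and 4.50. ATP5C1 (now ATP5F1C), the gamma shaft, had 3.83, 3.78, 4.34 and 3.28. In each, HN30 was highest and HN30/DDP lowest, with HN30 differences of -1.16, -1.51 and -1.06 and HN4 differences of -0.22, 0.25 and -0.055. The small subunits ATP5D and ATP5E differed by -0.59 and -0.49 in HN30, and a second ATP5E probe, to another transcript, gave -0.37 in HN4 and -2.46 in HN30.

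In the peripheral stalk, which keeps the head from turning, ATP5F1 (now ATP5PB), the b subunit, had signals of 4.96, 4.72, 5.29 and 3.77. ATP5J (now ATP5PF), coupling factor 6, had 6.68, 6.32, 6.87 and 5.57. ATP5O (now ATP5PO), which confers sensitivity to oligomycin, had 7.41, 7.17, 7.74 and 6.69. In all of them the resistant array was below the parental array in both lines, with differences of -0.24, -0.36 and -0.24 in HN4 and -1.52, -1.30 and -1.05 in HN30. The fourth, ATP5H, differed by 0.16 in HN4 and -0.79 in HN30. Of the membrane subunits, ATP5J2 (now ATP5MF) had 7.0002, 6.11, 7.06 and 5.43. Both resistant arrays lay below both parental arrays, and its differences of -0.89 in HN4 and -1.63 in HN30 were the lowest of the complex in HN4 and the second lowest in HN30. ATP5I and ATP5L differed by -0.96 and -0.64 in HN30.

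The c-ring is built of copies of 1 protein, and ATP5G1, ATP5G2 and ATP5G3 encode the same mature form of it. They differed widely from each other in HN30. ATP5G1 had signals of 4.85, 4.95, 5.14 and 2.98. ATP5G2 (now ATP5MC2) had 6.996, 7.02, 7.10 and 6.999. ATP5G3 (now ATP5MC3) had 8.09, 8.64, 8.44 and 7.08. ATP5G1 and ATP5G3 were lowest in HN30/DDP, while ATP5G2 was nearly level over the 4 arrays. Their differences in HN30 were -2.16, -0.10 and -1.37, so ATP5G1 was the lowest and ATP5G2 the highest of the complex there. In HN4 they were 0.11, 0.020 and 0.55, with ATP5G3 the highest of the complex. ATP5S (now DMAC2L) and ATP5SL (now DMAC2) are assembly or regulatory factors rather than subunits, and were counted in complex V by name only. They differed by -0.77 in HN4 and -0.41 in HN30 and by -0.45 in HN4 and -0.21 in HN30, and ATP5L2 by -0.17 in HN4 and -0.73 in HN30. ATP5L2 is close in sequence to ATP5L, so its signal is uncertain.

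**Figure D3:**
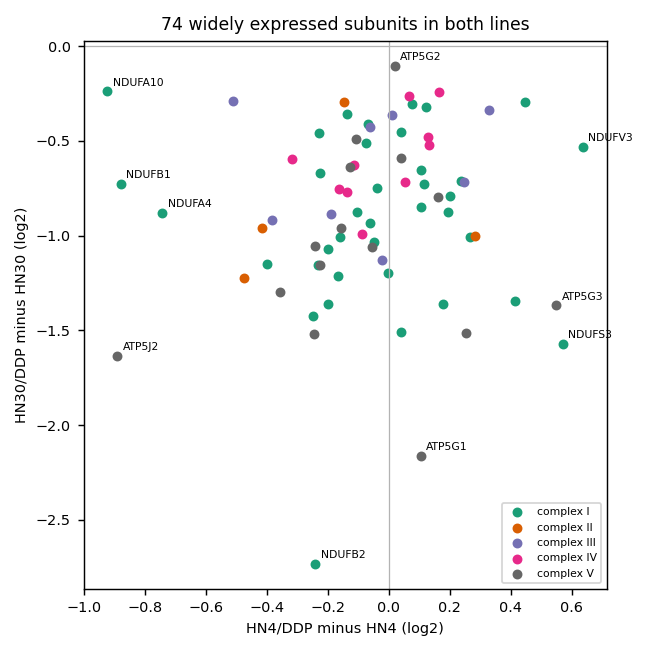
Difference in HN30 (vertical axis, log2) against difference in HN4 (horizontal axis, log2) for the 74 widely expressed subunits, coloured by complex, 1 array per condition. Under this scaling all points lie below 0 in HN30 and on both sides of 0 in HN4, and the named points are those at the edges of the cloud.

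Across the 74 subunits the differences in both lines had Pearson's r = 0.059 and Spearman's rho = 0.14, a description across genes of arrays that share no sample, and genes are not independent replicates. Of these subunits, 43 were below 0 in both lines and 31 were above 0 in HN4 and below 0 in HN30. This split depends on the scaling, since after quantile normalization 57 of the 74 were below 0 in HN30. Of the 22149 genes well above background on all arrays, 7763 were below 0 in both lines. A further 4166 were above 0 in HN4 and below 0 in HN30, 5078 were the reverse, and 5142 were above 0 in both. Across these genes the same r was 0.28.

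The 2 lines together give the only replicated contrast, resistant against parental with the cell line as a block, fitted with limma over 29521 genes and leaving 1 residual degree of freedom. It called no gene at an adjusted p of 0.05, 0% of those tested, while 2537 genes, 8.59%, were under 0.05 unadjusted. Of the 80 members well above background on all 4 arrays, fitted among 22149 such genes, none was called and 3 were under 0.05 unadjusted. These were ATP5J2, with an estimate of -1.26 (SE 0.32, limma adjusted p = 0.53), NDUFA4 with -0.81 (SE 0.22, limma adjusted p = 0.53) and NDUFB1 with -0.80 (SE 0.29, limma adjusted p = 0.56). All 3 were lower in both resistant lines. The fit over 29521 genes held 84 members, of which COX8C was one more under 0.05 unadjusted, but it entered the fit only through HN30/DDP and its value is not given. A p here measures only the spread between 2 lines, and a p that misses the threshold does not show that a member did not differ.

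In HN30 the differences of all genes varied with their signal, and the subunits lay in the range where most genes were below 0. Between the lower and upper quartile the subunits had a mean signal of 5.01 to 6.71. In HN30 the 36 subunits in that range had a median of -0.86, with 36 of 36 below 0, and the 912 other genes in it had a median of -0.54, with 77.0% below 0. In HN4 the medians were -0.071 and -0.13. After the trend of difference with signal was taken off, the median of the 74 subunits was -0.38 in HN30, with 60 of 74 below 0, and 0.039 in HN4. The part of brightness in the values of the members was not tested.

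**Figure D4:**
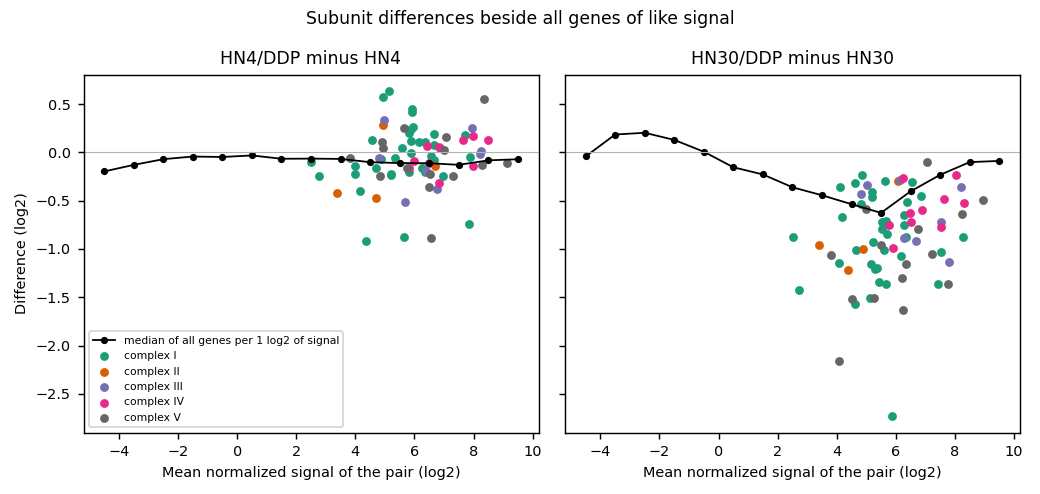
Difference (vertical axis, log2) against mean signal of the pair of arrays (horizontal axis, log2) for the widely expressed subunits, coloured by complex, with the median of all genes per unit of signal as the black line, HN4 on the left and HN30 on the right. In HN30 the black line dips below 0 where the subunits lie, and most subunits lie below it.

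Other genes of the same pathway were counted from lists of names, also set with earlier results of these data known. The 6 subunits, carriers and regulators that the naming rule misses had a median of 0.036 in HN4 and -1.09 in HN30, where all 6 were below 0. Among them CYCS, cytochrome c, the carrier between complexes III and IV, had signals of 5.82, 4.86, 6.498 and 4.34 and differences of -0.97 and -2.16. CYC1, the cytochrome of complex III, had 4.72, 4.87, 5.38 and 4.19. Both were lowest in HN30/DDP. NDUFAB1, the mitochondrial acyl carrier protein found in complex I, differed by -0.087 in HN4 and -1.35 in HN30.

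For subunits encoded in mitochondrial DNA the arrays held 6 probes, for ND1, ND2, cytochrome b, COX1, COX2 and ATP6. Their median was -0.40 in HN4, with 6 of 6 below 0, and -1.10 in HN30, with 5 of 6 below 0. Cytochrome b had signals of 8.69, 7.72, 8.75 and 6.67, lower in both resistant lines. ND1, with 4.33, 4.18, 4.82 and 5.36, was the exception in HN30, at 0.54. The nuclear and mitochondrial subunits of complex IV can be set side by side, with HN30 differences of -0.51 for COX1 and -0.98 for COX2 against the nuclear median of -0.61.

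Assembly factors build the complexes without staying in them, and 44 of 47 listed were on the arrays. Their median was 0.0054 in HN4, with 22 below 0, and -0.82 in HN30, with 38 below 0, 19 lower by 1 or more and 1 higher, where 8.67% and 12.9% of all gene names were, and 14.2% of genes well above background on both arrays were lower. The 19 were 11 after quantile normalization, 12 in the deposited values, 9 without the brightness trend and 28 with median scaling. By complex the HN30 medians were -1.07 for complex I, -0.34 for complex II, -0.44 for complex III, -0.67 for complex IV and -0.68 for complex V. COX20, which handles the COX2 protein, had the lowest HN30 difference of the list, -3.72, and COX19, a copper-related factor of complex IV, the highest, 3.04. In HN4 they differed by -0.97 and -0.34. ACAD9, of complex I assembly, differed by -0.58 and -1.90, and BCS1L, which inserts the Rieske protein, by -0.74 and -1.91.

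The 77 mitochondrial ribosomal proteins had a median of -0.023 in HN4 and -1.08 in HN30, where 74 were below 0 and 43 lower by 1 or more, against the same 8.67% of all gene names and 14.2% of genes above background. The 43 were 16 after quantile normalization, 18 in the deposited values, 17 without the brightness trend and 64 with median scaling. The 13 citric acid cycle genes had -0.17 and -0.72, and all 13 were below 0 in HN30.

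Promoter sequences were found for 62 of the 74 widely expressed subunits, and the shares below are of these, of all 27305 promoters of the same length and of the 15843 among them of coding genes, searched on both strands. The core of the NRF1 motif, CGCATGCG, was in 10 subunit promoters, 16.1%, in 2.19% of all promoters and in 2.88% of coding ones. The ETS motif, CCGGAAG, was in 19, 30.6%, in 10.67% of all and in 14.2% of coding ones. The YY1 motif, AAGATGGC, was in 11, 17.7%, in 3.03% of all and in 3.91% of coding ones. The CRE half-site, TGACG, which every full CRE also holds, was in 24, 38.7%, in 25.01% of all and in 29.5% of coding ones. The full CRE was in the 5 promoters shown, 8.06%, in 1.98% of all and in 2.59% of coding ones.

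The HN30 medians of the subunits with and without a motif were -0.81 and -0.78 for NRF1, -0.77 and -0.79 for ETS, -0.999 and -0.77 for YY1, -0.91 and -0.72 for the CRE half-site and -0.999 and -0.76 for the full CRE. In HN4 these medians were -0.017 and -0.064 for NRF1, -0.038 and -0.067 for ETS and -0.067 and -0.055 for YY1. They were -0.082 and -0.029 for the CRE half-site and -0.16 and -0.060 for the full CRE. The HN30 median of -0.999 is the value of SDHB for both the full CRE and YY1. NDUFB2 and ATP5G1, at -2.73 and -2.16 in HN30, were the reason for showing the 5 full CRE promoters. Their low values are thus no result about the CRE, and NDUFA10 was one of the nearest to 0, -0.24. A motif match is a description of letters, and binding was not measured in these arrays.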

How the data were processed

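Total RNA of 4 cell lines was measured on 1 one-colour Agilent human expression array each. The authors deposited the scanner output, with the processed intensity of each spot made by Feature Extraction 10.7.1.1 (background subtracted, no normalization between arrays, probe coordinates on hg19), and a table of log2 values whose making no source used here describes. In that deposited log2 table the differences correlated with those of the scanner files with r = 0.998 over 23470 probes in HN4 and 0.948 over 23245 in HN30. The 4 arrays share 1 slide and 1 scan. Differences of culture, extraction or labelling between single samples cannot be told apart from the condition.

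From the 60901 non-control spots, outlier spots were left out, spots of a probe averaged (58183 probes), the log2 processed intensity taken and the 75th percentile of the array subtracted. The percentile was 494.0, 496.1, 444.4 and 479.5 in HN4, HN4/DDP, HN30 and HN30/DDP. For each gene the probe of highest mean over the arrays was taken. 23 members had more than 1 probe. Of 28 other probes well above background, from 21 members, 24 had the sign of the chosen probe in HN30 and 23 in HN4. For dim genes a bound was set at the lowest signal well above background, from -4.99 to -4.63 over the arrays. The fold "at least" is the bright array against the higher of this bound and the dim signal. Symbols are those of the array, and 85 members were matched by accession to RefSeq, 20 with another current name. Genes of mitochondrial DNA were matched by their gene name on the array. The values of 1 member are not reported here by name.

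Members, lists and motifs were chosen with earlier results of these data known. Values on all arrays are given for the members with the highest and lowest difference of each complex and line, those past the difference of 1, the restricted isoforms with their partners, and complex II. Limma 3.58.1 (R 4.3.3, eBayes with trend, Benjamini-Hochberg over all genes tested) was run on genes that 1 or more arrays read well above background and was tested on simulated data. P-values measure only the spread between these samples. Alternatives were normexp with an offset of 50, the deposited values, quantile and median scaling, a pseudocount of 16, the mean of probes, dim signals at their bound, removal of a lowess trend (fraction 0.3), only widely expressed subunits, only genes above background on both arrays, only probes with NM accessions, and limits of 0.5 and 2. Python 3.11.15, numpy 2.4.6, pandas 2.3.3 and statsmodels 0.14.6 were used.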

Additional observations from a re-analysis of the deposited data

Results flagged for a closer look

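The differences between resistant and parental cells went opposite ways in HN4 and HN30 for some members, each with 1 array per condition, and this gap between lines was not tested. NDUFS3 differed by 0.57 in HN4 and -1.57 in HN30, a gap of 2.14 on the log2 scale. ATP5G3 differed by 0.55 and -1.37, a gap of 1.92. NDUFV3 differed by 0.64 and -0.53, a gap of 1.17, but its other probe gave 0.62 and 0.048, and its HN30 value was -0.024 without the brightness trend and 0.025 after quantile normalization. The median of complex IV was 0.067 in HN4 and -0.48 in HN30, a gap of 0.55, but the HN4 median was -0.017 over widely expressed subunits and -0.088 with dim signals at their bound.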

How the results depend on the processing

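Resistant and parental arrays were paired only by cell line, as the block of the limma fit. No paired analysis by replicate number was possible because there is 1 array per condition, and for the same reason no array could be left out. The medians of the members and of each complex in HN30 stayed below 0 under all 11 alternatives, but their size moved. For all members and complexes I, II, III, IV and V in turn, the HN30 medians were -0.34, -0.31, -0.51, -0.11, -0.21 and -0.50 in the deposited values, -0.28, -0.26, -0.48, -0.095, -0.16 and -0.45 after quantile normalization, -1.16, -1.28, -1.40, -0.85, -0.90 and -1.43 with median scaling, and -0.30, -0.40, -0.51, -0.12, -0.12 and -0.53 after the brightness trend was taken off. With the mean of all probes complex II had -0.71 and complex III -0.72. Median scaling moved the median of all genes in HN30 to -0.49, and relative to all genes the members lay between -0.68 and -0.26 under every scaling. The number of members lower in HN30, 26, was 8, 6, 55 and 9 in the deposited values, after quantile normalization, with median scaling and after the trend was taken off (of all genes 8.78%, 8.59%, 15.6% and 6.77%), and 58 and 2 at limits of 0.5 and 2. The number higher there, 1, was 2 without the trend and at 0.5, and 0 among genes above background on both arrays and among widely expressed subunits. In HN4 the number higher, 1, was 0 with normexp, with genes above background on both arrays and with widely expressed subunits, and 4 at 0.5, and the number lower, 0, was 1 with the mean of probes and 8 at 0.5. The cause of these moves was not tested. With limma, median scaling called 297 genes in all, none a member, where the 75th percentile called none. Single arrays limit the precision of every value here.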
